A study of Mus musculus with 4 samples.

Results

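The cytosolic heat shock proteins and their cochaperones were followed here through 10 genes, Hspa1a, Hspa1b, Hspa8, Hsph1, Dnajb1, Hsp90aa1, Hspb1, Hspb8, Bag3 and Hsf1, which were chosen by name. They were read in brown adipose tissue (BAT) of transgenic (Tg) mice on 1-color Agilent arrays that hold 55681 probes, of which 26582 could be named and stand for 20145 genes. Of the 10 genes, 9 have a probe and Hspa1b has none that could be matched, and the 9 genes are covered by 12 probes. All 12 probes were well above background in all 4 mice, so all 9 genes were tested, among 12789 genes and 24975 probes in all.

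All 4 mice were males of the C57/BL6N strain at 8 weeks of age that carry mAP2-Fv2E-PERK. In this transgene the kinase domain of PERK, which phosphorylates eIF2α, is joined to the dimerization domain Fv2E under the mouse aP2 (Fabp4) promoter, a promoter that is active in adipocytes and is known to be active in macrophages too. The vehicle group of 2 mice received an injection of ethanol, polyethylene glycol and Tween-20 in water into the peritoneum. The AP group of 2 mice received AP20187 (AP), the ligand that dimerizes Fv2E, in the same vehicle. The labels give the dose as 1 ng per g, while a figure legend of the study gives a higher one. BAT was taken 12 h later. Both groups carry the transgene, and mice without it were not analysed here, so the values compare the ligand with its vehicle and not the transgene with its absence. The comparison asks which mRNAs of BAT differ after the integrated stress response (ISR) is switched on by AP. BAT is a mixture of cells, so fewer cells of a type and less RNA per cell cannot be told apart.

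Heat shock proteins are molecular chaperones that bind unfolded stretches of other proteins. HSP70 proteins work in a cycle of ATP binding and hydrolysis, in which J-domain (HSP40) proteins bring the client, and HSP110 and BAG proteins exchange the nucleotide and let the client go. HSP90 takes over clients at a late stage of folding, and small HSPs hold unfolded proteins without using ATP. Under heat and other stress to cytosolic proteins, the transcription factor HSF1 forms trimers and binds heat shock elements, which are inverted repeats of GAA, in front of the inducible genes. This arm of protein quality control is separate from the ISR and from the chaperones of the endoplasmic reticulum (ER). BAT itself is a tissue that burns fuel to make heat.

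Because HSF1 is the known regulator of the inducible genes among the 10, the sequence around the start sites was searched. The search used the RefSeq promoters of assembly GRCm38.p6, which run from 250 bases before the start to 50 bases after it. Of the 10 genes, 7 have 1 or more of 9 promoters in that table, and Hspa8, Hsp90aa1 and Hsf1 were not matched. A 2-unit heat shock element, spelled GAANNTTC or TTCNNGAA on either strand, was found in 7 of the 9 promoters, where 15.1% of all 32851 promoters hold 1. These promoters belong to 6 of the 7 genes. The following stretches end at the base before the start and show the matches that lie upstream of it, with the matches in capitals.
Hspa1a, chr17:34972157-34972286, minus strand: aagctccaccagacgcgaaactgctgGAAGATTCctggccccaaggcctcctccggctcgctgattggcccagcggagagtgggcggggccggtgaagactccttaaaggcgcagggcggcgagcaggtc
Hspb1, chr5:135887789-135887918, plus strand: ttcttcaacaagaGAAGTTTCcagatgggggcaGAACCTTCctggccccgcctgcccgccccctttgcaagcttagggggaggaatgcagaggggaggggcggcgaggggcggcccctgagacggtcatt
Hsph1, chr5:149636337-149636406, minus strand: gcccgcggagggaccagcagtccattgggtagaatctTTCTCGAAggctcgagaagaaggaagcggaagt
The match of Hspa1a begins 104 bases before the start, those of Hspb1 117 and 97 bases before it, and that of Hsph1 33 bases before it. Hspa1b has the same match as Hspa1a at the same place, and the 250 bases before the start are identical at 247 positions between these genes. Hsph1 also holds a 3-unit match, TTCTGGAAAGTTC, which begins 36 bases after that start and contains 2 overlapping 2-unit matches. A 3-unit match is held by 0.603% of all promoters. Hsph1 has a second annotated start 21 bases further downstream. Hspb8 and Bag3 have a single 2-unit match each, which begins 2 and 42 bases after the start, and the promoters of Dnajb1 hold none. TATAAA and TGATGNAA, the element bound by ATF4 and its partners, were found in 0 of the 9 promoters, against 13.6% and 3.97% of all promoters. A match is a run of letters and says nothing about whether a factor was bound in these mice.

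**Figure D1:**
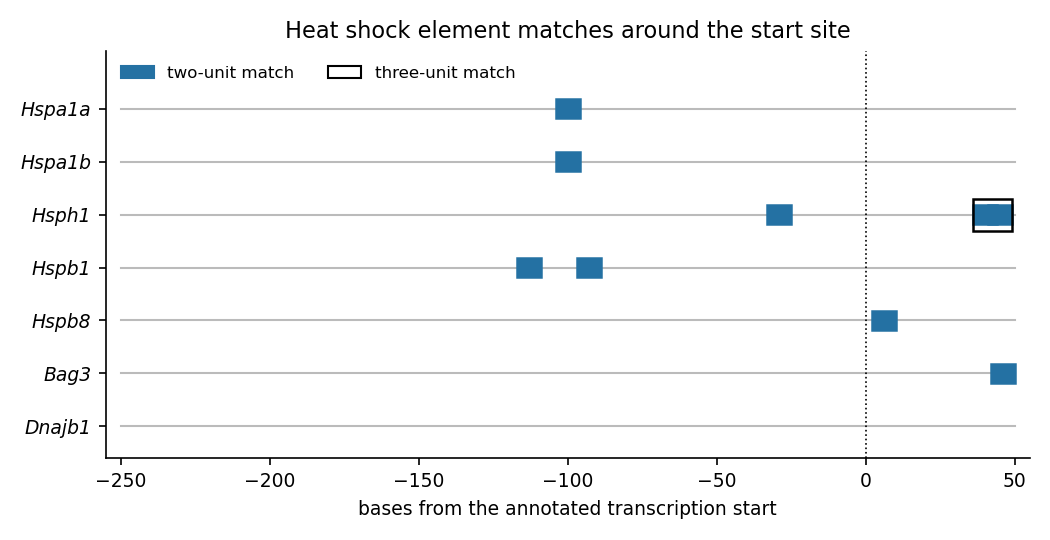
Matches to the heat shock element (filled boxes, 2 units; open box, 3 units) against the distance in bases from the annotated transcription start of 7 genes; grey lines mark the searched stretch. Matches of Hspa1a, Hspa1b and Hspb1 lie about 100 bases before the start, and those of Hspb8 and Bag3 lie after it.

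Signals are given as log2 of the background-subtracted signal minus the 75th percentile of the same array, so that 0 is the 75th percentile and a step of 1 is a doubling. A value is not compared between probes, which differ in how strongly they bind. The study names Trib3 and Ddit3, targets of the ISR, from these same arrays, so their direction is no independent check of the labels. Trib3, a pseudokinase induced by ATF4, gave a log2 signal of 2.78 and 2.33 in the vehicle mice and 6.26 and 8.01 in the AP mice. Ddit3, the transcription factor CHOP, gave 2.18 and 1.86 with the vehicle and 3.03 and 4.22 with AP. Both genes were higher in both AP mice than in both vehicle mice, by a log2 difference of 4.57 and 1.61, each with an adjusted p of 0.80 (limma). Cidea and Ucp1, which mark brown adipocytes, were bright in all mice, with a log2 signal of 10.62 to 11.34 for Cidea and 9.66 to 10.41 for Ucp1.

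Of the 9 heat shock genes, 8 were lower with AP than with the vehicle on average, and none passed the test. After Benjamini-Hochberg adjustment over all probes (limma), 0 of the 9 differed at 0.05, where 0% of all 24975 probes did. At an unadjusted p of 0.05, 0 of the 9 were lower and 0 higher, while 2.77% of all probes were lower and 3.3% higher. The median log2 difference of the 9 genes was -0.53, against -0.01 over all probes. Both AP mice lay below both vehicle mice for 4 of the 9 genes, Hspa8, Hsph1, Dnajb1 and Bag3, where 20.4% of all probes showed this, and both lay above for 0 of the 9, where 17.9% did. The smallest p that an exact two-sided permutation test can give with these 4 mice is 0.333, and p values measure the spread between these mice only.

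The mean difference rested largely on 1 mouse. Vehicle replicate 1 had the highest value of the 4 mice for 8 of the 9 genes and for 11 of the 12 probes, while it was highest at 30.1% of all probes. It exceeded vehicle replicate 2 by a log2 difference of at least 1 for 6 of the 9 genes, as it did at 4.09% of all probes. Without this mouse, 4 of the 9 genes were lower with AP and the median log2 difference became 0.12. Without vehicle replicate 2 instead, 8 of the 9 were lower, the median was -0.90, and 6 genes had an unadjusted limma p under 0.05, where 5.53% of all probes did, with 0 under the adjusted threshold. The count of genes whose groups did not overlap became 8 without vehicle replicate 2, where 39.9% of all probes showed this with 3 mice. Leaving out AP replicate 1 made this count 6, where 32.3% of all probes showed it. The count was 4 when vehicle replicate 1 was left out (33.8% of all probes) and 5 when AP replicate 2 was (37.8%). Hsph1 differed by -2.30 on the log2 scale when AP replicate 1 was left out, and by -1.01 when AP replicate 2 was. The count of genes highest in vehicle replicate 1 was 8 of 9 also with normexp, quantile and median scaling and in the authors' log2 table.

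**Figure D2:**
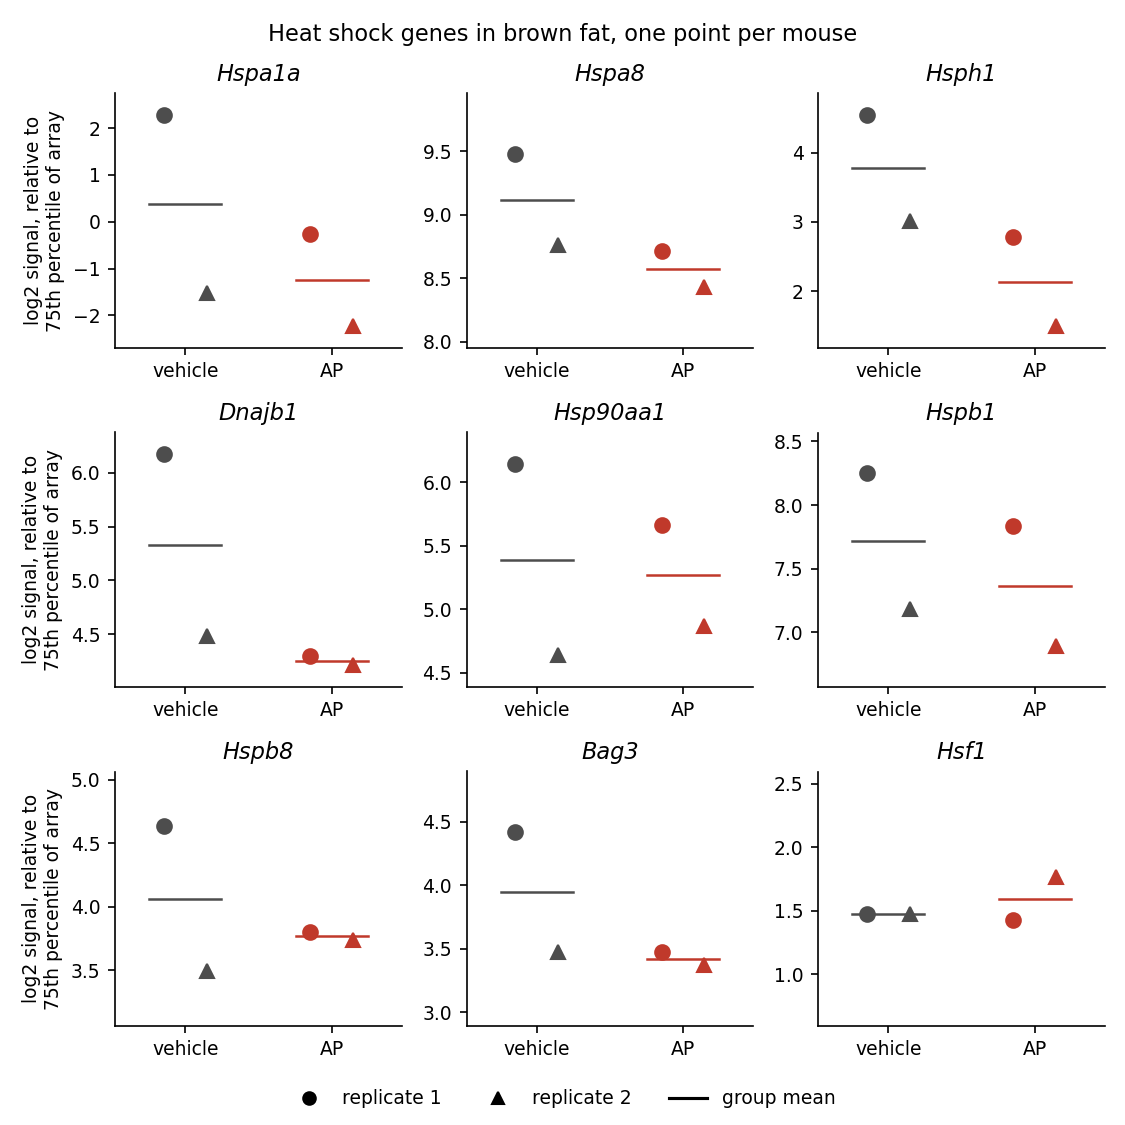
Log2 signal, with the 75th percentile of each array set to 0 (y axis, own range for each gene) in the vehicle and AP groups for the 9 genes with a probe; circles are replicate 1, triangles replicate 2, and lines the group means of 2 mice. Vehicle replicate 1 is the highest point for all genes but Hsf1, and vehicle replicate 2 lies near or within the AP mice for most.

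Among the HSP70 proteins, Hspa1a, the strongly stress-inducible member, had the widest spread. Its log2 signal was 2.29 in vehicle replicate 1 and -1.52 in vehicle replicate 2, and -0.26 and -2.24 in the AP mice. Vehicle replicate 1 was above both AP mice and vehicle replicate 2 lay between them, so the groups overlapped. Vehicle replicate 1 was 14.0-fold above vehicle replicate 2, which was the largest difference between these mice among the 9 genes. The mean difference was -1.63 on the log2 scale (standard error 1.44), or 3.10-fold lower with AP, with a 95% interval from -5.44 to 2.17 and an adjusted p of 0.84 (limma). Without vehicle replicate 1 it turned to 0.27, and without vehicle replicate 2 it was -3.54. Hspa1a and Hspa1b encode nearly the same protein, and how much of the signal of the Hspa1a probe comes from Hspa1b was not tested.

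Hspa8, the constitutive HSP70 known as HSC70, is covered by 3 probes. The brightest probe gave a log2 signal of 9.47 and 8.76 with the vehicle and 8.72 and 8.43 with AP. The other probes gave 7.76, 6.97, 6.80 and 6.37, and 5.66, 4.59, 4.85 and 4.31, in the same order of mice. All 3 probes were highest in vehicle replicate 1 and lowest in AP replicate 2, and the groups did not overlap in 2 of the 3. The log2 difference of the brightest probe was -0.54 (standard error 0.32; adjusted p = 0.80, limma), or 1.46-fold lower with AP. The other probes had log2 differences of -0.78 and -0.55. The difference was -0.18 for the brightest probe without vehicle replicate 1. Hspa8 has pseudogenes of closely similar sequence in the genome, and their part in the signal was not tested.

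Hsph1, the inducible HSP110 that exchanges nucleotide on HSP70, had the largest mean difference of the 9 genes. Its brighter probe gave a log2 signal of 4.55 and 3.02 with the vehicle and 2.78 and 1.49 with AP. Its other probe gave 2.93 and 1.37 with the vehicle and 1.33 and 0.08 with AP. Both probes placed the mice in the same order, with both AP mice below both vehicle mice. The log2 difference of the brighter probe was -1.65 (standard error 0.69), or 3.14-fold lower with AP, with a 95% interval from -3.49 to 0.18. Its unadjusted p was 0.068 and its adjusted p 0.80 (limma). Without vehicle replicate 1 the difference was -0.88, the most negative of the 9 genes in that comparison, and the other probe gave -0.66. With each array scaled to its median, Hsph1 was the only 1 of the 9 genes whose AP mice both lay below both vehicle mice, and 12.8% of all probes showed this under that scaling.

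Dnajb1, the inducible J-domain protein HSP40 that stimulates the ATPase of HSP70, gave a log2 signal of 6.18 and 4.49 with the vehicle and 4.30 and 4.21 with AP. The AP mice were close to each other and lay just below vehicle replicate 2, far from vehicle replicate 1. The log2 difference was -1.07 (standard error 0.59; adjusted p = 0.80, limma), or 2.11-fold lower with AP. Without vehicle replicate 1 it was -0.23.

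Bag3, the BAG-domain cochaperone that links HSP70 to small HSPs and to selective autophagy, gave a log2 signal of 4.42 and 3.48 with the vehicle and 3.47 and 3.37 with AP. The AP mice were again below both vehicle mice, but vehicle replicate 2 exceeded the mean of the AP mice by only 0.05 on the log2 scale. The log2 difference was -0.53 (standard error 0.37; adjusted p = 0.82, limma) with all mice and -0.05 without vehicle replicate 1.

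The inducible cytosolic HSP90 gene, Hsp90aa1, gave a log2 signal of 6.14 and 4.64 with the vehicle and 5.66 and 4.87 with AP. The AP mice lay inside the range of the vehicle mice. The log2 difference was -0.12 (standard error 0.60; adjusted p = 0.98, limma). It turned to 0.63 when vehicle replicate 1 was left out and to 0.27 when AP replicate 2 was.

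Of the small HSPs, Hspb1, known as HSP25 in mice, gave a log2 signal of 8.25 and 7.18 with the vehicle and 7.84 and 6.89 with AP, so that the groups overlapped. The log2 difference was -0.36 (standard error 0.51; adjusted p = 0.89, limma), and it turned to 0.18 when vehicle replicate 1 was left out and to 0.12 when AP replicate 2 was. Hspb8, a small HSP that binds BAG3, gave 4.63 and 3.50 with the vehicle and 3.80 and 3.74 with AP. Both AP mice lay between the vehicle mice, and the log2 difference of -0.30 (standard error 0.43; adjusted p = 0.89, limma) turned to 0.27 without vehicle replicate 1.

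Hsf1, the transcription factor itself, was the gene that did not share this pattern. Its log2 signal was 1.47 and 1.48 with the vehicle and 1.43 and 1.77 with AP, so the vehicle mice were nearly equal and the AP mice lay on both sides of them. The log2 difference was 0.12 (standard error 0.23; adjusted p = 0.92, limma), with a 95% interval from -0.48 to 0.72. It turned to -0.04 in the authors' log2 table, where the median of all probes was -0.17, and to -0.05 without AP replicate 2. Because HSF1 is controlled mainly through its protein, its mRNA is not a measure of its activity.

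**Figure D3:**
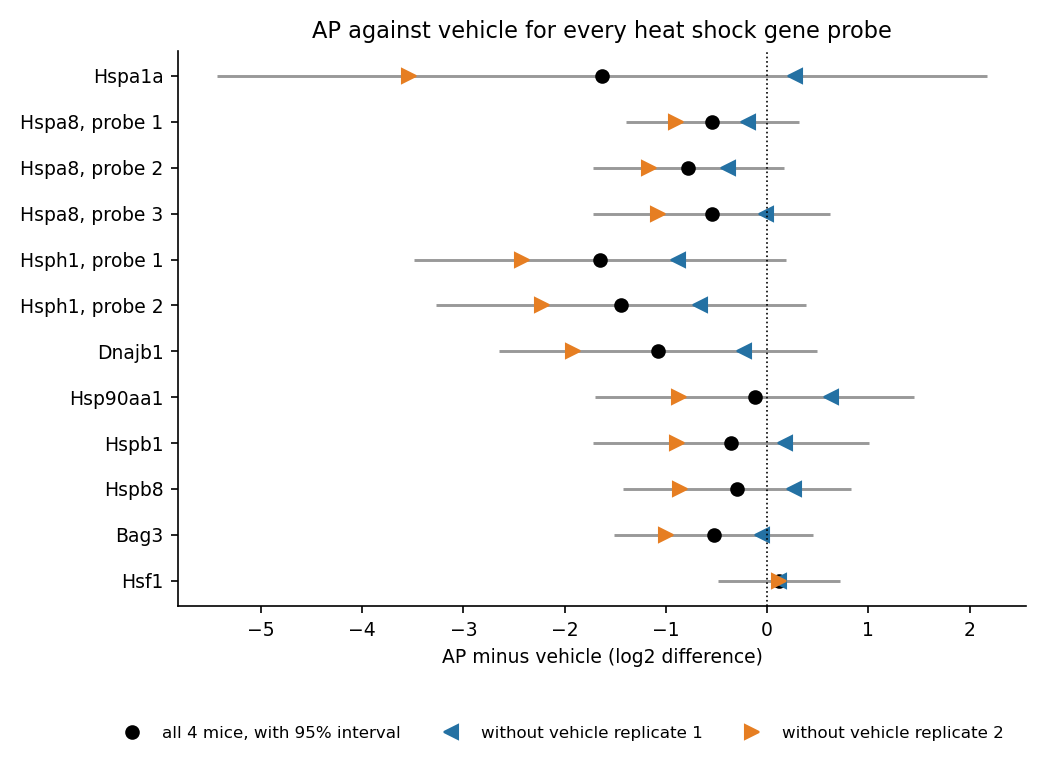
AP minus vehicle on the log2 scale (x axis) for all 12 probes of the 9 genes; circles are the limma estimates from all 4 mice with 95% intervals as grey lines, and triangles the estimates without 1 of the vehicle mice. All 12 intervals include 0, and the estimates without vehicle replicate 1 lie above 0 for Hspa1a, Hsp90aa1, Hspb1, Hspb8 and Hsf1.

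The wider chaperone system was described with 59 further genes in 7 lists, of which 58 have a probe and 56 were tested. Of the 56, 29 were higher and 27 lower with AP, with a median log2 difference of 0.01. At an adjusted limma p of 0.05, 0 of the 56 differed, and at an unadjusted p of 0.05, 2 were lower (2.77% of all probes) and 0 higher (3.3% of all probes). The count of 2 became 7 without vehicle replicate 1, 6 without vehicle replicate 2, 1 without AP replicate 1 and 3 without AP replicate 2, while 8.72%, 5.53%, 4.02% and 6.66% of all probes passed in those fits. Both AP mice lay below both vehicle mice for 13 of the 56, or 23.2%, and above for 7, or 12.5%, against 20.4% and 17.9% of all probes. Vehicle replicate 1 was highest for 19 of the 56, or 33.9%, where it was highest at 30.1% of all probes.

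Dnaja1, a J-domain partner of HSC70, came nearest to them among the HSP40 relatives. The log2 signal of its brighter probe was 6.92 and 5.74 with the vehicle and 5.09 and 5.17 with AP. The log2 difference of -1.20 had an unadjusted p of 0.046 and an adjusted p of 0.80 (limma). Its other probe differed by -0.61, with an unadjusted p of 0.14 and an adjusted p of 0.80 (limma). Dnajb6, a J-domain protein that holds back aggregation, and Dnajc7, a cochaperone that binds HSP70 and HSP90, were higher with AP in both mice, by 0.66 and 0.45. Dnaja4, another J-domain protein, differed by -0.44 with groups that overlapped, and it was highest in vehicle replicate 1. Of the 8 HSP40 relatives tested, 5 were higher and 3 lower, with a median log2 difference of 0.21 that turned to -0.04 without vehicle replicate 2. Of the 7 HSP70 and HSP110 relatives, 6 were lower and 1 higher, and the largest differences belonged to Hspa12a at -1.17, Hspa4l, an HSP110, at 0.48 and Hspa12b at -0.32, none of which had groups that did not overlap.

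In the HSP90 system, 4 of 10 tested genes were higher and 6 lower, with a median log2 difference of -0.14, which turned to 0.11 without vehicle replicate 1 and to 0.15 without AP replicate 2. Chordc1, an HSP90 cochaperone, gave a log2 signal of 3.11 and 2.42 with the vehicle and 2.03 and 1.92 with AP, a difference of -0.79 (adjusted p = 0.80, limma). Stip1, the adaptor HOP that hands clients from HSP70 to HSP90, gave 2.57 and 2.20 with the vehicle and 1.88 and 1.46 with AP, a difference of -0.71 (adjusted p = 0.80, limma). Both AP mice were below both vehicle mice in these genes. Fkbp5, an HSP90 cochaperone known as a target of glucocorticoids, was higher by 1.24, but 1 mouse set this value: it gave 1.01 and 0.64 with the vehicle and 3.11 and 1.01 with AP.

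Among other heat shock factors and genes known to rise with HSF1, 6 of 10 were higher and 4 lower. Serpinh1, the collagen chaperone HSP47 of the ER, had the smallest p of the 56 genes. Its log2 signal was 5.23 and 5.17 with the vehicle and 4.07 and 4.28 with AP. The vehicle mice were nearly equal, and the groups stood apart by more than the spread within either. The log2 difference was -1.03 (standard error 0.21), with an unadjusted p of 0.0060 and an adjusted p of 0.80 (limma). Hspe1, the mitochondrial chaperonin HSP10, was higher by 0.71 and Ier5, an immediate early gene, was lower by 0.45. Hspe1 was lowest in vehicle replicate 2, at a log2 signal of 5.87 against 7.09 to 7.44 in the other mice.

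The differences were small among the remaining regulators and in the chaperonin, and 0 of these genes had an unadjusted p under 0.05. Of the 8 BAG proteins and HSP70 regulators, 5 were higher and 3 lower, with differences from -0.18 to 0.48. The largest were those of Bag2 at 0.48, St13, known as HIP, at 0.34, and Bag5 at 0.29. Of the 8 subunits of the cytosolic chaperonin TRiC, which folds actin and tubulin, 5 were higher and 3 lower, with differences from -0.26 for Cct3 to 0.18 for Cct2, and with Cct4 at 0.10.

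**Figure D4:**
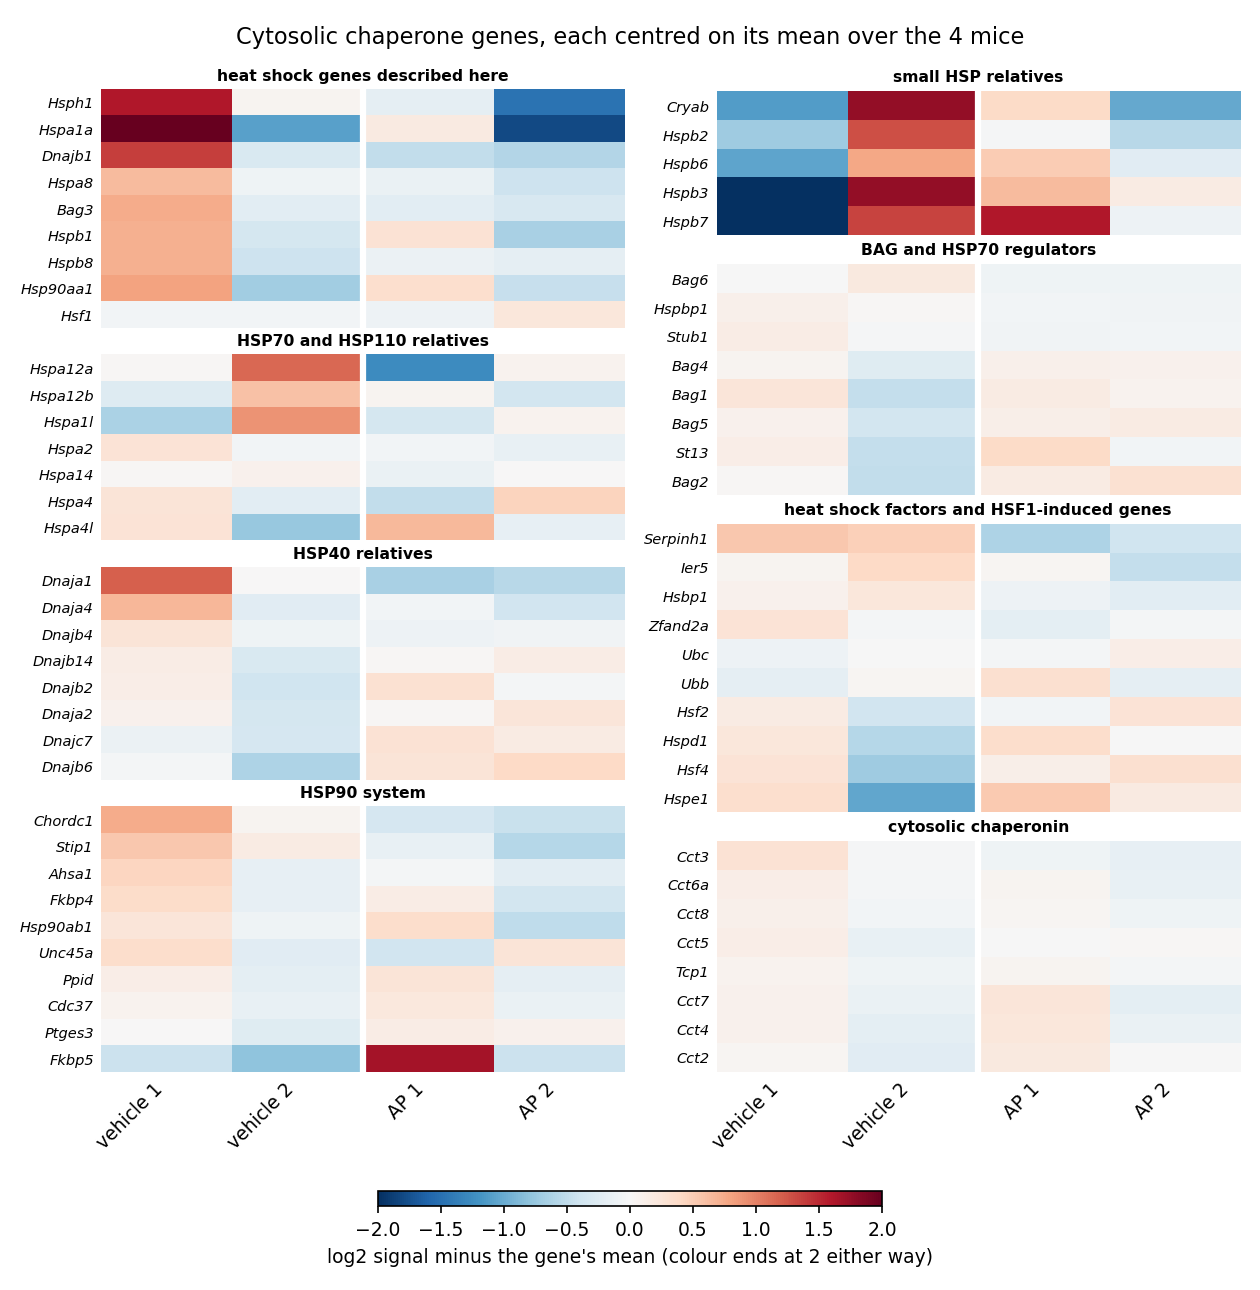
Log2 signal of each tested chaperone gene minus its mean over the 4 mice (color), with the 9 heat shock genes at the top left and 56 further genes in 7 lists, each list sorted by AP minus vehicle. The inducible heat shock genes, Dnaja1 and Chordc1 are highest in vehicle replicate 1, while the small HSP relatives are lowest there.

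The small HSP relatives were low in the mouse where Hspb1 and Hspb8 were high. All 5 that were tested were lowest in vehicle replicate 1, and 4 of the 5 were highest in vehicle replicate 2. Cryab, the αB-crystallin that is abundant in muscle, gave a log2 signal of 3.45 and 6.31 with the vehicle and 4.95 and 3.53 with AP, a difference of -0.64. Hspb7 and Hspb3, which are known from heart and skeletal muscle, were not well above background in vehicle replicate 1. They passed the filter only through the AP mice, the group where their mean was higher. Their differences of 1.50 and 0.80 therefore depend on that filter and include a value near background. In vehicle replicate 2 and AP replicates 1 and 2, the log2 signal was -0.49, -0.24 and -1.95 for Hspb7. For Hspb3 it was -1.50, -2.62 and -3.09 in the same order. The median log2 difference of the 5 genes was 0.28, and it turned to -0.57 when genes had to be well above background in all 4 mice, to -0.01 with normexp, to -0.73 in the authors' log2 table, to -1.35 without vehicle replicate 1 and to -0.09 without AP replicate 1.

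Markers of skeletal muscle moved with the same mice. All 11 markers were tested, 10 of them well above background in all 4 mice and Mylpf in 3, all 11 were lowest in vehicle replicate 1 and highest in vehicle replicate 2, and 0 of 11 passed the test. Their signals, relative to the 75th percentile and summed on the linear scale, came to 46.4 and 875 in the vehicle mice and 546 and 292 in the AP mice. Myh4, a fast myosin heavy chain whose probe had the highest mean signal of the list, gave a log2 signal of 3.84 and 7.83 with the vehicle and 7.58 and 6.63 with AP. Vehicle replicate 1 thus had the lowest muscle signal together with the highest signal of 8 of the 9 heat shock genes. The part of this in the differences of the heat shock genes was not tested.

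Of 9 leukocyte markers, 7 were tested, Cd68 has no matched probe and Cd79a was not above background. All 7 were highest in vehicle replicate 2, with summed signals of 38.4 and 114 in the vehicle mice and 46.6 and 43.0 in the AP mice, and the probe of H2-Ab1 had the highest mean signal. The 8 brown adipocyte markers, led by Cidea, summed to 6487 and 4355 with the vehicle and 5206 and 6014 with AP. The 5 smooth muscle markers, led by Tagln, summed to 46.2, 43.4, 44.3 and 42.4, and the 4 endothelial markers, led by Kdr, to 33.7, 37.5, 35.2 and 32.3 in the same order of mice. Vehicle replicate 1 stood apart from the other mice in muscle, and vehicle replicate 2 in leukocytes, and the part of these in the heat shock genes was not tested. The arrays shared 1 slide and 1 scan. On the slide, both vehicle arrays lay in column 1 and the AP arrays in columns 3 and 4, so column and treatment cannot be told apart. Vehicle replicate 2 lay in row 2 and vehicle replicate 1 and both AP arrays in row 1. The part of the row in the differences between the vehicle mice was not tested.

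**Figure D5:**
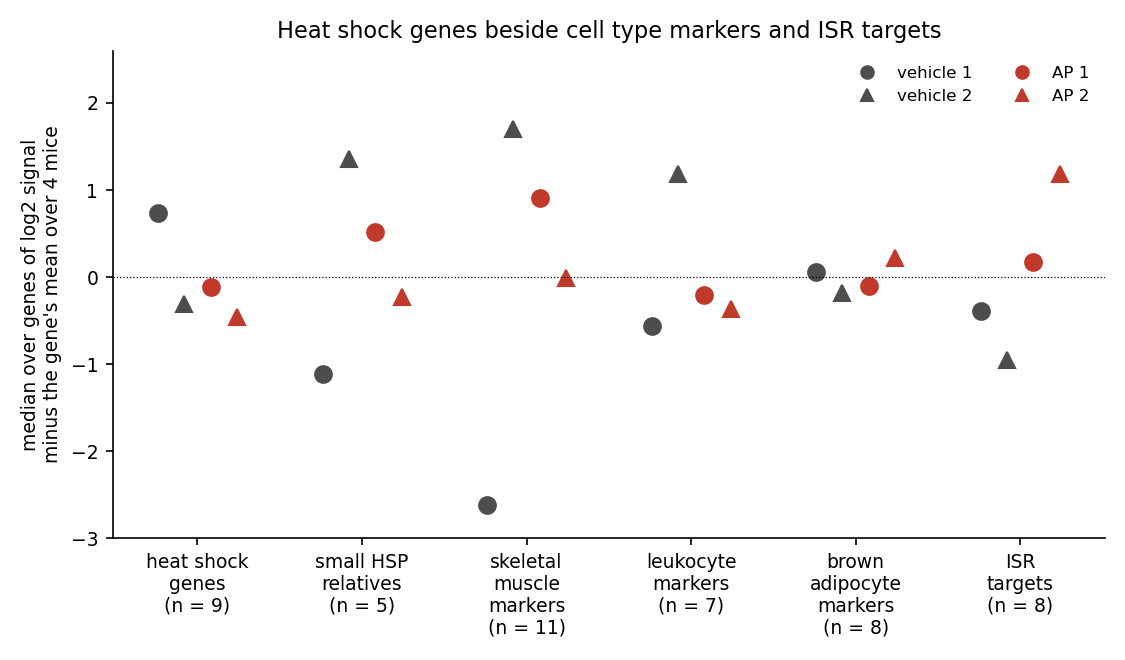
Median over the tested genes of a list of the log2 signal minus each gene's mean over the 4 mice (y axis), for the 9 heat shock genes, the small HSP relatives, markers of 3 cell types and ISR targets; gray points are vehicle mice and red points AP mice, with circles for replicate 1. The median of the heat shock genes is highest in vehicle replicate 1 (0.73), where that of the muscle markers is lowest (-2.62). The median of the ISR targets is higher in both AP mice than in both vehicle mice, as were 5 of the 8 targets taken singly.

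The ISR targets gave the level of the response in each AP mouse. Of 8 targets, 7 were higher with AP, 5 of them at an unadjusted p of 0.05 (3.3% of all probes) and in both AP mice above both vehicle mice (17.9% of all probes), with a median log2 difference of 1.12. Chac1, an enzyme that degrades glutathione, was higher by 3.42. AP replicate 2 had the larger ISR signal of the AP mice, with list medians of 1.19 against 0.17 in AP replicate 1 relative to each gene's mean. It had the lowest value of the 4 mice for 6 of the 9 heat shock genes and for 21.8% of all probes, and whether this goes with its ISR signal was not tested.

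The genes whose profile over the 4 mice was nearest to that of Hsph1 were sought among 12787 genes, by the root mean square distance between profiles centered on their means. The 5 nearest were Syce1 at a distance of 0.15, Gm5129 at 0.23, Wsb1 at 0.26, Has2 at 0.28 and Onecut2 at 0.31. All 5 had log2 signals below 0, the 75th percentile, in all 4 mice. In AP replicate 2 they ran from -5.24 for Syce1 to -4.00 for Gm5129, below the median spot of that array. Only 46.4% of its spots were well above background, so these 5 profiles include values near background. Among the nearest 100 genes, which reach a distance of 0.69 where the median gene lies at 1.11, were 2 of the heat shock genes, Dnajb1 at rank 20 and Hspb1 at rank 88. The 100 also held 2 of the further chaperone genes, Dnaja1 at rank 26 and Chordc1 at rank 81. The ranks are a description over 4 mice, with no test.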

How the data were processed

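Total RNA from BAT of 2 vehicle and 2 AP mice was run on SurePrint G3 Mouse arrays in 1 color, with 1 array per mouse. The scans were read by the authors in Feature Extraction (version 10.7.1.1 per the submitters' processing notes), who deposited the intensity of each spot, background-subtracted and on a linear scale, with no normalization between arrays. The deposited flags for outlier spots and for spots well above background are scores of 0 or 1. A further table deposited by the authors holds log2 values, whose normalization and centring are not stated, and which was used as an alternative; the medians of its columns were -0.28 and -0.16 for the vehicle mice and -0.44 and -0.29 for the AP mice.

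The processed signals were taken to log2 and the 75th percentile of each array was subtracted. Control and outlier spots were left out, and spots of a probe were averaged. Of the spots, 46.8% and 49.0% were well above background in the vehicle mice and 46.4% in both AP mice, and 0 were saturated. Precision is limited by the number of arrays. A probe entered when both mice of 1 group or of both groups had it well above background, and these probes were fitted with limma 3.58.1 in R 4.3.3 and adjusted by Benjamini-Hochberg over 24975 probes, 2 of which lack 1 array. The fit was tested on simulated data. Gene names came from RefSeq accessions through assembly GRCm38.p6, and a gene with several probes is given by its brightest. Of each further list, up to 3 genes with the largest absolute difference were named, with the marker of each cell type whose probe had the highest mean signal. Ucp1, Dnaja4, Fos and Fosb were named outside this rule, after their values were seen. The genes and lists were chosen with earlier results of these data known.

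Alternatives were normexp with an offset of 50, quantile and median scaling, the authors' log2 table, a variance trend, no filter and a filter on all 4 arrays, the replicate number as a block, the mean over all probes of a gene, the methods' t-test, and leaving out each mouse. A crossed block was added after seeing the data. No source says that replicate numbers pair the mice, so the fit had no block.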

Additional observations from a re-analysis of the deposited data

How the results depend on the processing

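In all alternatives fitted on probes 0 probes passed the adjusted threshold, as did 0 of 12791 genes when the probes of each gene were averaged, and 8 of the 9 heat shock genes stayed lower with AP in all alternatives that kept the 4 mice, except in the authors' log2 table, where Hsf1 turned to -0.041 and the median of all probes shifted to -0.17. Their count at an unadjusted p of 0.05, which was 0, became 1 with normexp and 2 in the authors' log2 table, where 6.36% and 7.45% of all probes passed against 6.07% before. The count of genes with both AP mice below both vehicle mice, which was 4, became 1 with median scaling, 3 when the probes of each gene were averaged and 5 in the authors' log2 table. Of all probes, 12.8% showed this with median scaling and 32.8% in the authors' log2 table. The share over all genes is not given for the averaged probes, so that count has no background beside it. For the 56 further chaperone genes the unadjusted count of 2 became 5 with normexp, with a variance trend and in the authors' log2 table, 4 with quantile scaling, and 1 with the methods' t-test and with the mean of all probes. It was 4 of the 53 genes that passed the filter on all 4 arrays and 1 of 58 with no filter. The share of all probes or genes that passed in these fits lay between 4.69% and 7.45%. The unadjusted count of 1515 probes became 2613 with no filter.

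With the replicate block the unadjusted counts were 1226 probes (4.91%), 2 heat shock genes and 4 further genes. Deviations of same-numbered mice correlated at -0.13, and with the numbers crossed the counts were 1566, 0 and 2. The block changed no adjusted call.

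Leaving out 1 mouse moved the unadjusted counts between 1003 and 2178 probes, 0 and 6 heat shock genes and 1 and 7 further genes, the count of lower heat shock genes between 4 and 8, and the count without overlap between 4 and 8, where 32.3% to 39.9% of all probes showed no overlap with AP lower. The ranges of the log2 differences were -3.54 to 0.27 for Hspa1a, -0.87 to 0.63 for Hsp90aa1, -0.89 to 0.18 for Hspb1, -0.87 to 0.27 for Hspb8 and -0.049 to 0.29 for Hsf1. Without vehicle replicate 1 the values were 0.27, 0.63, 0.18 and 0.27 for the first 4 genes, and without AP replicate 2 they were 0.27 for Hsp90aa1, 0.12 for Hspb1 and -0.049 for Hsf1. The cause was not tested. With 3 mice the lone mouse of a group is assumed to vary like the other group.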

Other observations

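Chaperones of the ER lumen, the counterpart of the cytosolic genes, showed no common direction. Of 9 genes, 5 were higher and 4 lower with AP, with a median log2 difference of 0.02 that turned to -0.10 without vehicle replicate 1, to -0.14 without AP replicate 1 and in the authors' log2 table, to -0.04 with normexp and to -0.02 with quantile scaling, and 0 of 9 passed the adjusted limma threshold. Calr, the calcium-binding chaperone calreticulin, gave a log2 signal of 4.38 and 4.47 with the vehicle and 3.93 and 3.80 with AP, a difference of -0.56 with an unadjusted p of 0.044 and an adjusted p of 0.80 (limma). Hyou1, an HSP110 relative of the ER, differed by -0.42 and Canx, the membrane-bound calnexin, by 0.40.

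Of 9 immediate early genes, 6 were lower and 3 higher with AP, with a median log2 difference of -0.32 that was -0.09 without vehicle replicate 1 and turned to 0.07 without AP replicate 1. Their median in vehicle replicate 1 was -0.02 relative to each gene's mean, with members on both sides. That mouse was highest for 2 of the 9 genes, where it was highest at 30.1% of all probes, and lowest for 2. Fosb and Fos were highest there. Fosb gave a log2 signal of 0.90 and -2.43 with the vehicle and -0.34 and -2.00 with AP. Fos gave 0.16 and -0.45 with the vehicle and -0.62 and -0.41 with AP. Junb was lowest there, with -3.12 and -2.32 with the vehicle and -2.07 and -2.55 with AP. Dusp1, a phosphatase of MAP kinases, gave a log2 signal of 2.89 and 2.82 with the vehicle and 1.18 and 2.92 with AP, so its difference of -0.81 came from AP replicate 1. Jun differed by -0.59, with both AP mice below both vehicle mice, and Junb by 0.41.

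The cold-inducible RNA-binding proteins Cirbp and Rbm3, which are known to run opposite to heat shock genes with temperature, did not move together. Cirbp gave a log2 signal of 1.63 and 2.17 with the vehicle and 2.66 and 2.94 with AP, a difference of 0.90 with an unadjusted p of 0.027 and an adjusted p of 0.80 (limma). Rbm3 gave 4.31 and 4.69 with the vehicle and 3.45 and 4.31 with AP, a difference of -0.62 with an adjusted p of 0.80 (limma).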
